A study of Homo sapiens with 6 samples.

Results

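The expression of 48 genes of mitosis and cytokinesis was compared in A498 cells, a human kidney carcinoma line, between libraries of cells transfected for knockdown of PTPRZ1 and their controls. The genes were chosen by name for their function, with earlier results of these data known. They encode mitotic cyclins and kinases, centromere, kinetochore and spindle proteins, and condensin subunits and other chromosome structure proteins. Proteins of anaphase and cytokinesis and the transcription factors FOXM1 and MYBL2 complete them. All 48 were found among the 61860 genes of the count table by their Ensembl identifiers, and all 48 had enough counts to be tested, although NUSAP1 and PRC1 had few.

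The knockdown libraries (PTPRZ-Si) came from A498 cells that received siRNA against PTPRZ1, a receptor-type protein tyrosine phosphatase. The control libraries (PTPRZ-nc) came from A498 cells of the same culture conditions, for which the labels name a plasmid. Each group had 3 libraries, made from total RNA with a kit that keeps strand. No sequence of the siRNA or plasmid and no time after transfection was used here. The labels do not state that replicates are separate cultures, so the p-values rest on a spread among libraries that could be technical alone. A single cell line was used, and the means of delivery named for the groups differ, so an effect of the delivery and an effect of the knockdown cannot be told apart.

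Cells that enter mitosis do so when CDK1 is activated by A- and B-type cyclins and by CDC25 phosphatases. Chromosomes are then condensed and attached through kinetochores to spindle microtubules under the watch of the spindle checkpoint. They separate once the anaphase-promoting complex marks cyclin B and securin for destruction, and the contractile ring divides the cell. Many of the genes are transcribed mainly from late S phase to M. Their promoters are bound by MuvB complexes, first within the DREAM repressor and later with B-MYB (MYBL2) and FOXM1. In a bulk library, fewer cells in G2 and M and less of each mRNA per cell cannot be told apart.

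Total counts were 14407846, 21003207 and 21469746 in PTPRZ-Si libraries 1, 2 and 3, against 17083498, 13726908 and 18609477 in PTPRZ-nc libraries 1, 2 and 3. PTPRZ1 itself (ENSG00000106278, chromosome 7) had 0 counts in all 6 libraries, which allows 0.140 to 0.219 CPM per library for counting error only. CPM are counts scaled to the size of the library. The knockdown of PTPRZ1 was therefore not detectable, and every direction here rests on the labels. RNF26, the ubiquitin ligase named in the title of the series, had 39.3, 38.8 and 45.2 CPM in PTPRZ-Si libraries, against 49.7, 49.3 and 47.9 CPM in PTPRZ-nc libraries (log2 fold change -0.25, edgeR adjusted p = 0.0128). This call was lost without PTPRZ-Si 1 or PTPRZ-Si 2 (edgeR adjusted p = 0.061 and 0.0697). The 12 genes listed for renal epithelium and clear cell carcinoma summed to 3188 to 3320.2 CPM in PTPRZ-Si libraries and 3123 to 3171 CPM in PTPRZ-nc libraries, and 10 of them were tested. PAX8, KRT8 and VIM were abundant, and EPCAM, CA9, NDUFA4L2 and LHX1 averaged at or under 3 CPM in both groups. The summed level of 5 leukocyte markers was 0.912 to 1.32 CPM in PTPRZ-Si libraries and 0.533 to 0.877 CPM in PTPRZ-nc libraries, with PTPRC, CD3E and FCGR3A at 0. That of 4 endothelial markers was 1.403 to 1.63 CPM in PTPRZ-Si libraries and 0.935 to 1.096 CPM in PTPRZ-nc libraries, with CDH5 at 0. That of 5 fibroblast markers was 21.6 to 23.6 CPM in PTPRZ-Si libraries and 31.4 to 41.7 CPM in PTPRZ-nc libraries, nearly all of it COL1A1, with LUM at 0. The part of these shifts in the results was not tested.

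Of the 48 genes, 33 fell in the PTPRZ-Si libraries, 1 rose (MKI67) and 14 did not pass, where a gene passed with an adjusted p of 0.05 or less. The test was the quasi-likelihood test of edgeR, with Benjamini-Hochberg adjustment over all 15476 tested genes, of which 27.4% passed in either direction. The share that fell was 68.8%, beside 13.4% of all tested genes, and the share that rose was 2.08%, beside 14.0% of all tested genes. The median log2 fold change of PTPRZ-Si over PTPRZ-nc was -0.23 over the 48 genes and 0.0010 over all tested genes. The estimate was negative for 43 of the 48 genes and positive for BUB3, MKI67, NUSAP1, CDC20 and FOXM1. The changes were small: the genes that fell were 1.099-fold to 1.49-fold lower in the PTPRZ-Si libraries, with a median of 1.21-fold. In 34 of the 48 genes every PTPRZ-Si library lay below every PTPRZ-nc library, which held for 20.0% of all tested genes. In 3 (MKI67, BUB3 and FOXM1) every PTPRZ-Si library lay above, which held for 20.8% of all tested genes.

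**Figure D1:**
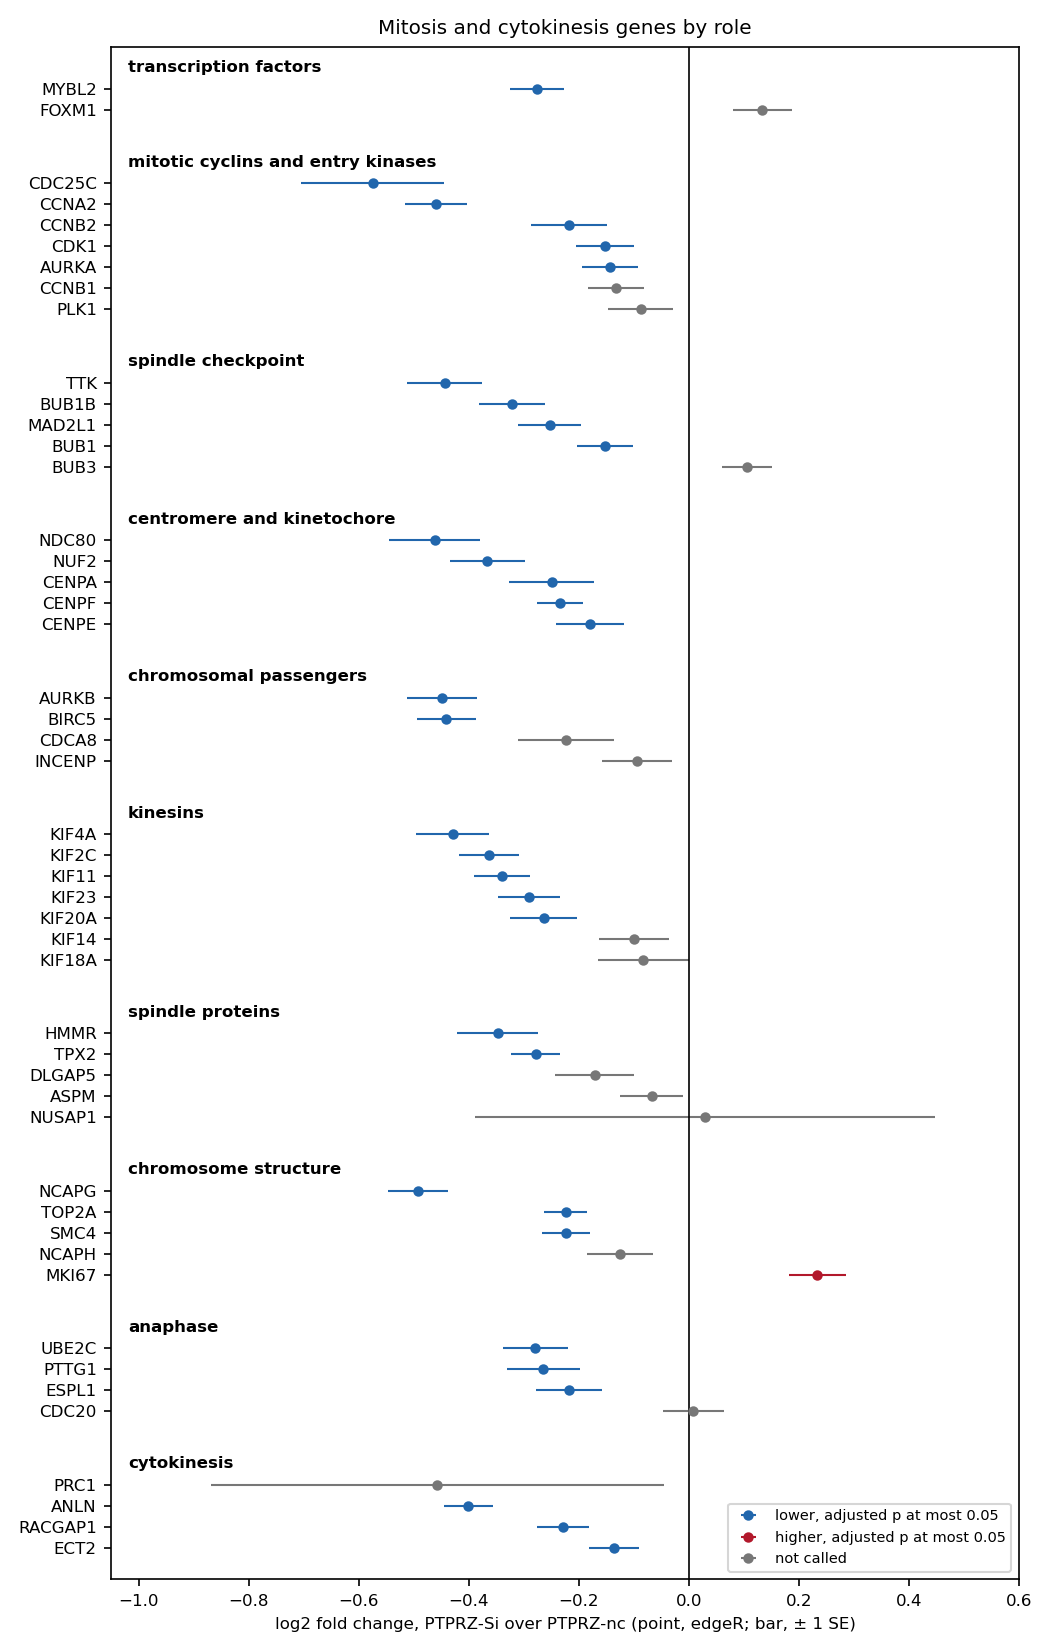
Log2 fold change of PTPRZ-Si over PTPRZ-nc (horizontal axis) for each of the 48 genes (rows, grouped by role), with bars of 1 SE from the edgeR fit of 3 libraries per group. Blue marks genes called lower, red genes called higher and grey genes with an adjusted p above 0.05: the 33 blue genes lie left of 0, MKI67 is the 1 red gene, and the widest bars belong to NUSAP1 and PRC1.

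The shift was of like size in each library. The 48 genes together summed to 4462, 4437 and 4427 CPM in PTPRZ-Si libraries 1, 2 and 3, against 5019.8, 5092 and 5188 CPM in PTPRZ-nc libraries 1, 2 and 3. The means were 4442 ± 18.2 CPM in PTPRZ-Si and 5099.8 ± 84.3 CPM in PTPRZ-nc (SD, n = 3 each), and the groups did not overlap. Set against the mean of the PTPRZ-nc libraries, the median gene stood at -0.20, -0.22 and -0.25 on the log2 scale in PTPRZ-Si libraries 1, 2 and 3, and at -0.0054, 0.0033 and 0.021 in PTPRZ-nc libraries 1, 2 and 3. The median over all tested genes stood at 0.0032, 0.0029 and 0.0055 in PTPRZ-Si libraries 1, 2 and 3. In the PTPRZ-Si libraries 42 to 44 of the 48 genes lay below the PTPRZ-nc mean, against 19 to 28 in the PTPRZ-nc libraries. The PTPRZ-nc libraries make up that mean themselves, so their range is not a like baseline. The same count was not made over all tested genes.

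**Figure D2:**
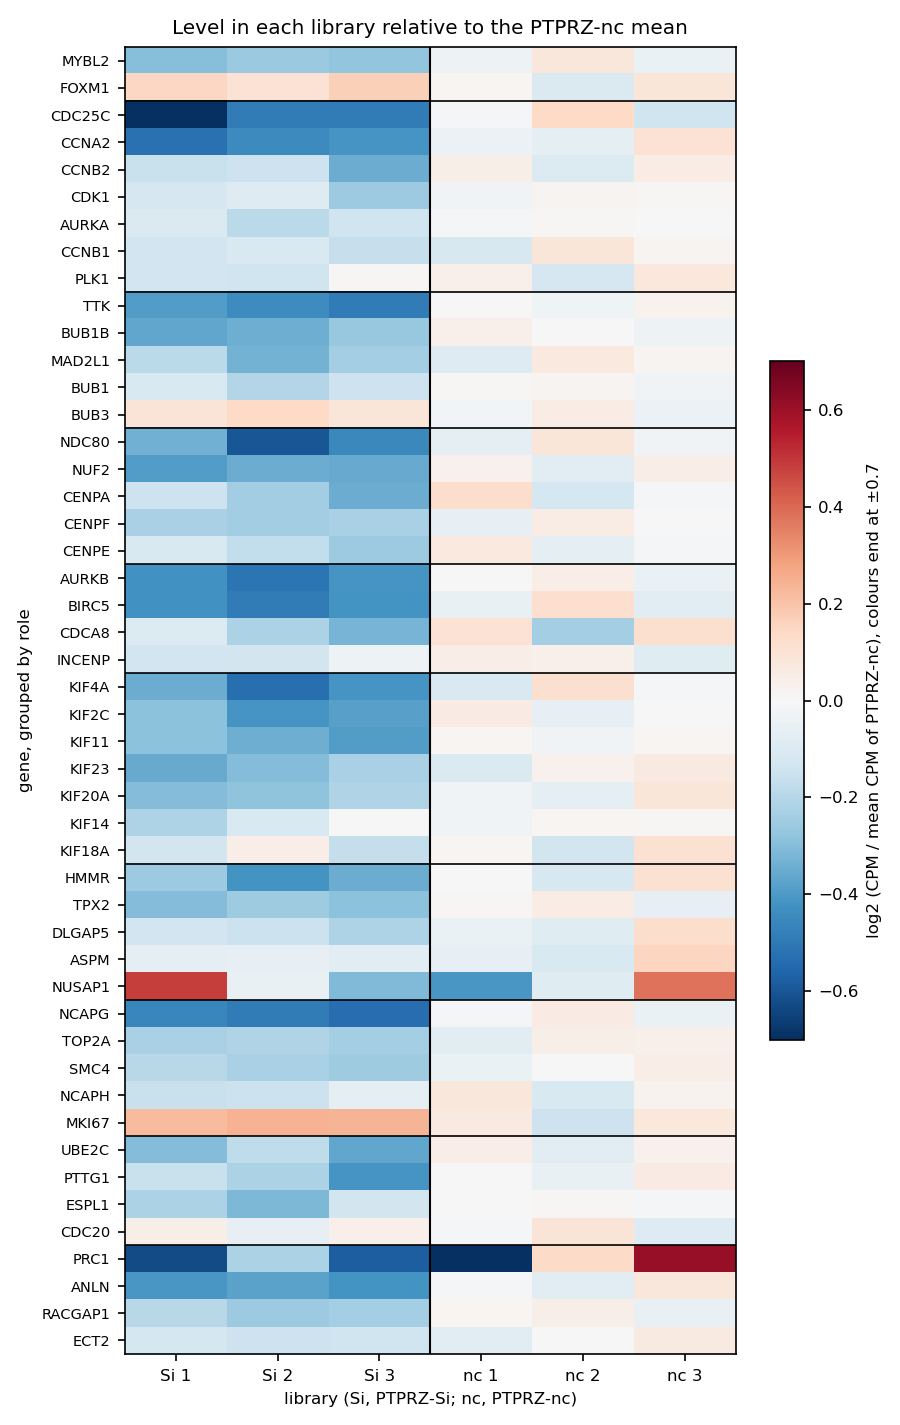
Log2 level of each of the 48 genes (rows, grouped by role) in each library relative to the mean of the PTPRZ-nc libraries (colour), with the 3 PTPRZ-Si libraries on the left and the 3 PTPRZ-nc libraries on the right. The PTPRZ-Si columns are mostly on the lower side in each library, with MKI67, BUB3 and FOXM1 on the higher side.

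Promoters of many of these genes hold short elements known for cell cycle timing, which were searched as a description of the genes. The part of these elements in the fold changes was not tested. RefSeq promoters (GRCh38.p14, 250 bases before to 50 after the first listed start of each gene) were found for 40 of the 48 genes and not for AURKA, BIRC5, BUB3, FOXM1, RACGAP1, TPX2, TTK and UBE2C. The core words of the cell cycle genes homology region (CHR), the element bound by MuvB complexes, were searched as TTTGAA or TTCGAA on either strand. They were found in 30 of the 40 promoters, 75.0% (exact 95% Clopper-Pearson interval 58.8 to 87.3), against 11.1% of the 11059 promoters of tested genes and 16.6% of all 27303 promoters. The interval treats the genes as random draws, but they were chosen by function and the element is known from genes of this kind. A high share was therefore likely beforehand, and the shares were not tested against each other. CCAAT, the word bound by NF-Y, also searched on either strand, was found in 30 of the 40, 75.0%, against 36.1% of the promoters of tested genes and 35.7% of all promoters. Each word counted wherever it stood, also where the words share bases. Both words were found together in 24 of the 40 promoters and in 4.73% of those of tested genes.

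The windows of 30 bases below are written 5′ to 3′ on the strand of the gene, each placed by the CHR word nearest before the start, with every CHR word in it in capitals. The first 5 belong to genes that fell, MKI67 to the gene that rose, and PLK1 and CDC20 to genes that did not pass.
ANLN (chr7:36389830-36389859, plus strand): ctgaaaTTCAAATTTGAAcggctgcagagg
NCAPG (chr4:17810932-17810961, plus strand): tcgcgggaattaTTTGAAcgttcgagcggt
KIF4A (chrX:70290058-70290087, plus strand): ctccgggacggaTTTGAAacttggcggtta
BUB1B (chr15:40161034-40161063, plus strand): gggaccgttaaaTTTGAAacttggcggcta
CENPA (chr2:26786026-26786055, plus strand): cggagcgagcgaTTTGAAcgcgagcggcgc
MKI67 (chr10:128126435-128126464, minus strand): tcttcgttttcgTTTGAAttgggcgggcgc
PLK1 (chr16:23678848-23678877, plus strand): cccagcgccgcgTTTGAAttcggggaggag
CDC20 (chr1:43358904-43358933, plus strand): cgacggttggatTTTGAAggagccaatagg

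The nearest word began -20 bases from the start in ANLN, -35 in NCAPG, -34 in KIF4A, -23 in BUB1B, -18 in CENPA, -29 in MKI67, -29 in PLK1 and -65 in CDC20, with the start base counted as 0. A further word began at -26 in ANLN, directly before the nearest one and in the same window, at -47 in MKI67 and at -178 in CDC20, the last 2 outside the windows shown. The nearest word of MKI67 and the 1 word of PLK1 stood at the same distance, with log2 fold changes of 0.23 and -0.088.

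Genes with and without a CHR word overlapped in their log2 fold changes. Of the 30 genes with a CHR word 19 fell, 1 rose and 10 did not pass, with a median log2 fold change of -0.22. Of the 10 without it 8 fell and 2 did not pass, with a median of -0.27. Of the 30 with CCAAT 17 fell, 1 rose and 12 did not pass, with a median of -0.22, and all 10 without it fell, with a median of -0.36. A match is a description of the sequence and not of binding, and no test was made of these differences. No match means only that the exact words were not found around the first listed start. Other forms of the element and other starts were not searched.

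**Figure D3:**
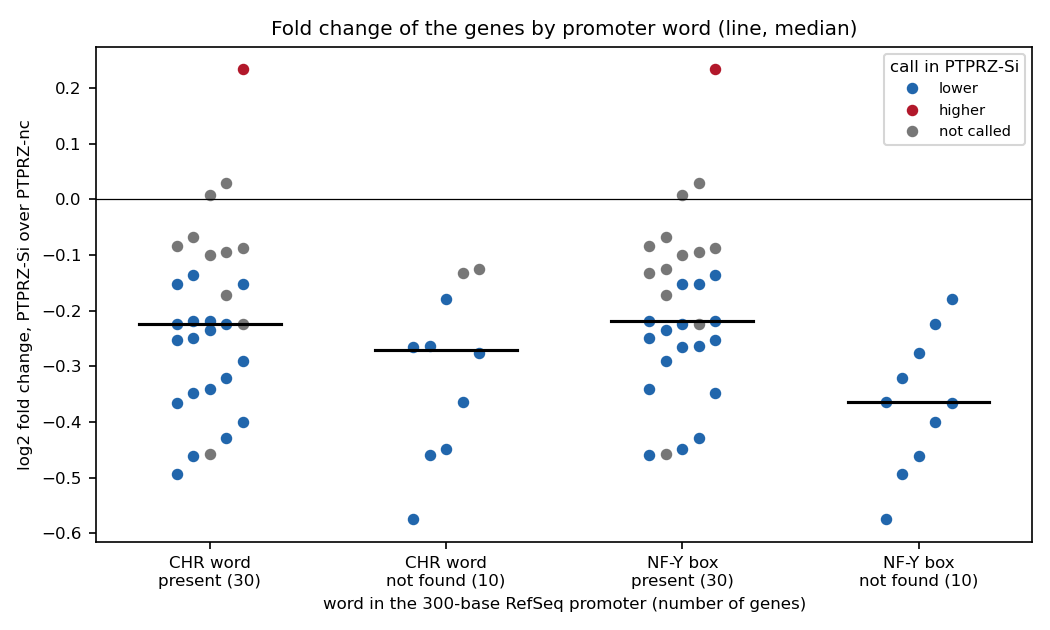
Log2 fold change of PTPRZ-Si over PTPRZ-nc (vertical axis) for the 40 genes with a promoter in the RefSeq table, in columns by whether the promoter holds a CHR word (TTTGAA or TTCGAA) and whether it holds an NF-Y box (CCAAT); each point is a gene, coloured by its call, and lines are medians. Genes with and without a CHR word overlap, all 10 genes without an NF-Y box were called lower, and MKI67, with both words, is the 1 gene called higher.

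Among the mitotic cyclins and entry kinases, 5 of 7 fell and 2 did not pass (median log2 fold change -0.15). Cyclin A2, the partner of CDK2 in S phase and of CDK1 at mitotic entry, showed the clearest fall: CCNA2 (chromosome 4 from 121816444 to 121823933, minus strand) had 69.3, 73.1 and 74.8 CPM in PTPRZ-Si libraries, against 96.7, 95.4 and 106.8 CPM in PTPRZ-nc libraries. The CCNA2 log2 fold change was -0.46 (SE 0.0564, edgeR adjusted p = 1.02e-05). The 2 groups were separated by more than the range within either. CDC25C, a phosphatase that removes the inhibitory phosphates of CDK1, had 6.69, 8.45 and 8.47 CPM in PTPRZ-Si libraries, against 11.7, 13.1 and 10.8 CPM in PTPRZ-nc libraries. The CDC25C log2 fold change was -0.57 (SE 0.130, edgeR adjusted p = 0.00301). This was the lowest log2 fold change of the 48 genes, with a wide error at its low counts. Cyclin B2 (CCNB2) had 49.3, 49.5 and 43.1 CPM in PTPRZ-Si libraries, against 56.3, 51.4 and 56.8 CPM in PTPRZ-nc libraries. The CCNB2 log2 fold change was -0.22 (SE 0.0691, edgeR adjusted p = 0.0256). The kinases CDK1 and AURKA fell by 0.15 and 0.14 on the log2 scale, close to the limit of calling (edgeR adjusted p = 0.0415 and 0.0436). Cyclin B1, the main CDK1 partner in mitosis, did not pass: CCNB1 had 146, 149 and 143 CPM in PTPRZ-Si libraries, against 148, 170.0 and 162 CPM in PTPRZ-nc libraries. The CCNB1 log2 fold change was -0.13 (SE 0.0512, edgeR adjusted p = 0.0648). The Polo-like kinase PLK1, which drives centrosome maturation and many later steps, had 94.0, 93.3 and 104 CPM in PTPRZ-Si libraries, against 105, 94.9 and 108 CPM in PTPRZ-nc libraries. The PLK1 log2 fold change was -0.088 (SE 0.0590, edgeR adjusted p = 0.3). The groups overlapped. The call of CCNB2 was lost without PTPRZ-Si 3, PTPRZ-nc 1 or PTPRZ-nc 3 (edgeR adjusted p = 0.164, 0.0914 and 0.0869). That of CDK1 was lost without PTPRZ-Si 1, PTPRZ-Si 3, PTPRZ-nc 1 or PTPRZ-nc 3 (edgeR adjusted p = 0.0731, 0.23, 0.0731 and 0.0837). AURKA did not pass without any 1 of the libraries other than PTPRZ-nc 2 (edgeR adjusted p = 0.0682 to 0.159). CCNB1 passed without PTPRZ-nc 1 (log2 fold change -0.19, edgeR adjusted p = 0.0164) and PLK1 without PTPRZ-nc 2 (-0.14, edgeR adjusted p = 0.0403).

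Of the pair of transcription factors 1 fell and 1 did not pass (median log2 fold change -0.071). MYBL2, the B-MYB protein that joins MuvB in S phase, fell: it had 102, 105 and 104 CPM in PTPRZ-Si libraries, against 123, 133 and 122 CPM in PTPRZ-nc libraries. The MYBL2 log2 fold change was -0.28 (SE 0.0491, edgeR adjusted p = 0.000428). FOXM1 (chromosome 12 from 2857681 to 2877155, minus strand), the forkhead factor of G2 genes, had 109.7, 106 and 111 CPM in PTPRZ-Si libraries, against 100.2, 92.4 and 105 CPM in PTPRZ-nc libraries. The FOXM1 log2 fold change was 0.13 (SE 0.0535, edgeR adjusted p = 0.075). Every PTPRZ-Si value of FOXM1 lay above every PTPRZ-nc value, but it did not pass. With 1 library left out it passed without PTPRZ-nc 3 alone (log2 fold change 0.18, edgeR adjusted p = 0.0313). It also passed as higher with a mean of at least 5 CPM (edgeR adjusted p = 0.0479) and with the replicate block and gene length offset together (edgeR adjusted p = 0.046). FOXM1 shares 15.9% of its exon bases with ITFG2 on the other strand, and the counting did not use strand.

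In the chromosome structure group 3 of 5 fell, 1 rose and 1 did not pass (median log2 fold change -0.22). NCAPG (ENSG00000109805, chromosome 4 from 17810902 to 17844862, plus strand), a HEAT-repeat subunit of condensin I, had 58.3, 57.0 and 55.4 CPM in PTPRZ-Si libraries, against 79.3, 83.4 and 77.5 CPM in PTPRZ-nc libraries. The NCAPG log2 fold change was -0.49 (SE 0.0546, edgeR adjusted p = 3.32e-06). This left it at 71.1% of its PTPRZ-nc level, with the smallest p of the 48 genes. Its groups were far apart, although 33.1% of its exon bases are shared with LCORL on the other strand. Topoisomerase II alpha, the decatenating enzyme of mitotic chromosomes, had the highest level per length of the 48: TOP2A had 559.6, 567 and 556 CPM in PTPRZ-Si libraries, against 619.7, 674 and 671 CPM in PTPRZ-nc libraries. The TOP2A log2 fold change was -0.22 (SE 0.0392, edgeR adjusted p = 0.000376). SMC4, an ATPase core of condensin, had 153, 149 and 147 CPM in PTPRZ-Si libraries, against 169, 174 and 180.4 CPM in PTPRZ-nc libraries. The SMC4 log2 fold change was -0.22 (SE 0.0443, edgeR adjusted p = 0.00109). SMC4 shares 18.5% of its exon bases with TRIM59 and 7.18% with IFT80, both on the other strand. NCAPH, the kleisin of condensin I, had 61.1, 61.3 and 65.1 CPM in PTPRZ-Si libraries, against 71.8, 63.1 and 69.3 CPM in PTPRZ-nc libraries. The NCAPH log2 fold change was -0.13 (SE 0.0602, edgeR adjusted p = 0.139). It passed only without PTPRZ-nc 2 (log2 fold change -0.18, edgeR adjusted p = 0.019).

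MKI67 (ENSG00000148773, chromosome 10 from 128096659 to 128126385, minus strand), which encodes the Ki-67 protein of the mitotic chromosome surface and is widely used to mark proliferating cells, went the other way. It had 258, 262 and 261 CPM in PTPRZ-Si libraries, against 231, 199.7 and 232 CPM in PTPRZ-nc libraries. The MKI67 log2 fold change was 0.23 (SE 0.0519, edgeR adjusted p = 0.00267). The 3 PTPRZ-Si libraries lay close together and above all 3 PTPRZ-nc libraries, of which replicate 2 was the lowest. Its log2 fold change stayed between 0.16 and 0.27 over 21 alternative settings and left-out libraries, and it missed the threshold in 1 of them, a test against a fold of 1.1 (edgeR adjusted p = 0.0641).

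The 5 centromere and kinetochore genes all fell (median log2 fold change -0.25). CENPF, a large coiled-coil protein of the outer kinetochore, had 253, 250.3 and 253 CPM in PTPRZ-Si libraries, against 286, 308 and 296 CPM in PTPRZ-nc libraries. The CENPF log2 fold change was -0.23 (SE 0.0412, edgeR adjusted p = 0.000396). NDC80 and NUF2 pair in the NDC80 complex, which holds the microtubule end. NDC80 had 24.9, 20.7 and 23.0 CPM in PTPRZ-Si libraries, against 30.1, 33.3 and 30.8 CPM in PTPRZ-nc libraries. The NDC80 log2 fold change was -0.46 (SE 0.0825, edgeR adjusted p = 0.000447). NUF2 had 29.3, 30.2 and 30.1 CPM in PTPRZ-Si libraries, against 39.3, 36.4 and 39.7 CPM in PTPRZ-nc libraries. The NUF2 log2 fold change was -0.37 (SE 0.0681, edgeR adjusted p = 0.000641). Both microtubule-binding partners were thus lower in every PTPRZ-Si library. The centromeric histone gene CENPA and the kinetochore motor gene CENPE fell less surely, by 0.25 and 0.18 on the log2 scale (edgeR adjusted p = 0.0229 and 0.0404). CENPA was lost without PTPRZ-Si 2, PTPRZ-Si 3 or PTPRZ-nc 1 (edgeR adjusted p = 0.0585, 0.131 and 0.135). CENPE was lost without PTPRZ-Si 2, PTPRZ-Si 3, PTPRZ-nc 1 or PTPRZ-nc 3 (edgeR adjusted p = 0.0906, 0.188, 0.166 and 0.07).

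Of the 5 spindle checkpoint genes 4 fell and 1 did not pass (median log2 fold change -0.25). TTK, the MPS1 kinase that starts checkpoint signalling at unattached kinetochores, had 29.1, 28.1 and 27.2 CPM in PTPRZ-Si libraries, against 38.2, 37.4 and 38.8 CPM in PTPRZ-nc libraries. The TTK log2 fold change was -0.44 (SE 0.0676, edgeR adjusted p = 9.83e-05). The next largest fall was of BUB1B, which encodes the BUBR1 part of the mitotic checkpoint complex: 42.8, 43.5 and 45.9 CPM in PTPRZ-Si libraries, against 56.4, 55.2 and 53.8 CPM in PTPRZ-nc libraries. The BUB1B log2 fold change was -0.32 (SE 0.0602, edgeR adjusted p = 0.000681). MAD2L1, the MAD2 protein that binds CDC20, had 74.7, 67.9 and 72.3 CPM in PTPRZ-Si libraries, against 80.0, 89.3 and 86.5 CPM in PTPRZ-nc libraries. The MAD2L1 log2 fold change was -0.25 (SE 0.0575, edgeR adjusted p = 0.00319). BUB1, a kinetochore kinase, fell by 0.15 on the log2 scale (edgeR adjusted p = 0.0356). Its call was lost without PTPRZ-Si 1, PTPRZ-Si 2, PTPRZ-Si 3 or PTPRZ-nc 1 (edgeR adjusted p = 0.0541, 0.147, 0.0944 and 0.0946). BUB3, the partner of BUB1 and BUBR1, was the exception: it had 158, 164 and 157 CPM in PTPRZ-Si libraries, against 147, 154 and 145 CPM in PTPRZ-nc libraries. The BUB3 log2 fold change was 0.11 (SE 0.0449, edgeR adjusted p = 0.0926). The PTPRZ-Si values of BUB3 were all higher than the PTPRZ-nc values. With 1 library left out it passed as higher without PTPRZ-nc 2 alone (log2 fold change 0.13, edgeR adjusted p = 0.0216), and it also passed with a mean of at least 5 CPM (edgeR adjusted p = 0.0499).

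The chromosomal passenger complex corrects wrong attachments and later acts at the midzone. Of its 4 genes 2 fell and 2 did not pass (median log2 fold change -0.33). Aurora B, its kinase, was lower in each PTPRZ-Si library: AURKB had 36.5, 34.3 and 36.8 CPM in PTPRZ-Si libraries, against 48.9, 50.6 and 47.4 CPM in PTPRZ-nc libraries. The AURKB log2 fold change was -0.45 (SE 0.0641, edgeR adjusted p = 5.1e-05). BIRC5 (chromosome 17 from 78214186 to 78225636, plus strand), which encodes survivin, the subunit that targets the complex, had 111, 106 and 112 CPM in PTPRZ-Si libraries, against 144, 162 and 142 CPM in PTPRZ-nc libraries. The BIRC5 log2 fold change was -0.44 (SE 0.0539, edgeR adjusted p = 1.01e-05). The scaffold INCENP had 45.3, 45.4 and 48.5 CPM in PTPRZ-Si libraries, against 51.2, 50.9 and 46.9 CPM in PTPRZ-nc libraries. The INCENP log2 fold change was -0.094 (SE 0.0636, edgeR adjusted p = 0.304). Its groups overlapped. Borealin, a further targeting subunit, was uneven among controls: CDCA8 had 42.1, 38.6 and 36.0 CPM in PTPRZ-Si libraries, against 48.2, 38.15 and 48.8 CPM in PTPRZ-nc libraries. The CDCA8 log2 fold change was -0.22 (SE 0.0875, edgeR adjusted p = 0.0692). PTPRZ-nc 2 lay among the PTPRZ-Si values for CDCA8, and without that library the gene passed (log2 fold change -0.33, edgeR adjusted p = 0.000886). With all libraries CDCA8 passed as lower with no low-count filter (edgeR adjusted p = 0.0123). It also passed with the replicate block and GC content offset together (edgeR adjusted p = 0.0451).

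**Figure D4:**
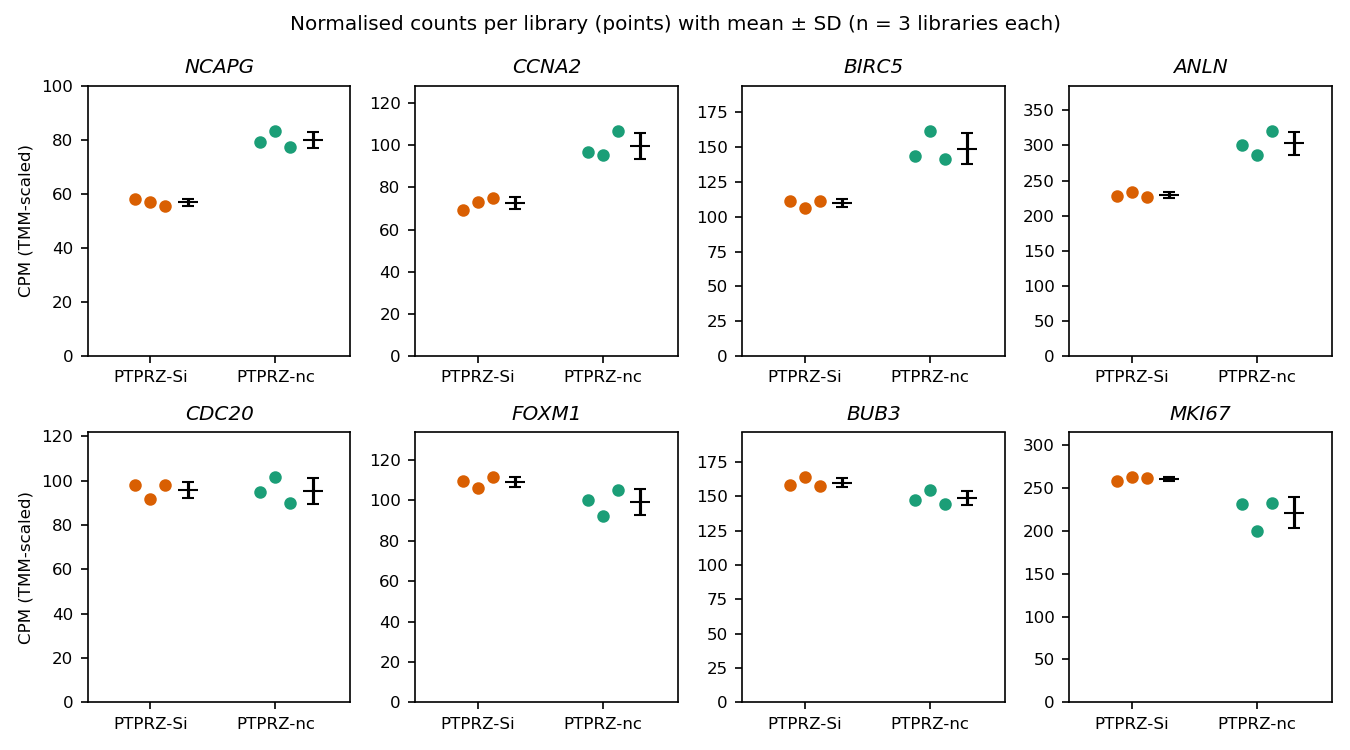
Level in CPM (vertical axes, from 0) in each library of NCAPG, CCNA2, BIRC5, ANLN, CDC20, FOXM1, BUB3 and MKI67, with the 3 PTPRZ-Si libraries left of the 3 PTPRZ-nc libraries; points are libraries and bars the mean with SD (n = 3). NCAPG, CCNA2, BIRC5 and ANLN are lower in PTPRZ-Si with no overlap, CDC20 overlaps, and FOXM1, BUB3 and MKI67 are higher with no overlap, of which MKI67 alone passed.

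Of 7 kinesins, the motor proteins of the spindle and midzone, 5 fell and 2 did not pass (median log2 fold change -0.29). KIF11, the motor that pushes spindle poles apart, had 74.4, 71.7 and 69.3 CPM in PTPRZ-Si libraries, against 91.5, 89.2 and 91.5 CPM in PTPRZ-nc libraries. The KIF11 log2 fold change was -0.34 (SE 0.0508, edgeR adjusted p = 8.02e-05). KIF2C, the microtubule depolymerase MCAK, had 70.9, 65.1 and 66.5 CPM in PTPRZ-Si libraries, against 90.1, 83.2 and 86.5 CPM in PTPRZ-nc libraries. The KIF2C log2 fold change was -0.36 (SE 0.0549, edgeR adjusted p = 9.13e-05). KIF4A, a chromosome arm motor that also works with PRC1 at the midzone, had 58.4, 51.4 and 55.6 CPM in PTPRZ-Si libraries, against 68.8, 80.2 and 73.6 CPM in PTPRZ-nc libraries. The KIF4A log2 fold change was -0.43 (SE 0.0663, edgeR adjusted p = 0.000115). The midzone motors KIF23 and KIF20A, both needed for cytokinesis, fell by 0.29 and 0.26 on the log2 scale (edgeR adjusted p = 0.000882 and 0.00364). KIF14, a further midzone motor, had 49.6, 53.5 and 57.6 CPM in PTPRZ-Si libraries, against 56.5, 58.2 and 58.0 CPM in PTPRZ-nc libraries. The KIF14 log2 fold change was -0.10 (SE 0.0631, edgeR adjusted p = 0.268). PTPRZ-Si 3 lay among the PTPRZ-nc values. KIF18A, which limits chromosome movements at the metaphase plate, had 27.1, 30.6 and 26.4 CPM in PTPRZ-Si libraries, against 29.9, 27.2 and 31.9 CPM in PTPRZ-nc libraries. The KIF18A log2 fold change was -0.083 (SE 0.0827, edgeR adjusted p = 0.505). Its groups overlapped as well.

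Among 5 spindle proteins 2 fell and 3 did not pass (median log2 fold change -0.17). TPX2, the activator of Aurora A on the spindle, had 165, 172 and 167 CPM in PTPRZ-Si libraries, against 205, 211 and 196 CPM in PTPRZ-nc libraries. The TPX2 log2 fold change was -0.28 (SE 0.0443, edgeR adjusted p = 0.000152). HMMR, a spindle pole protein that is also named as a hyaluronan receptor, had 35.6, 31.9 and 33.4 CPM in PTPRZ-Si libraries, against 42.4, 39.4 and 45.9 CPM in PTPRZ-nc libraries. The HMMR log2 fold change was -0.35 (SE 0.0735, edgeR adjusted p = 0.00186). DLGAP5, a microtubule protein of kinetochore fibres, lay below the PTPRZ-nc values in every PTPRZ-Si library but did not pass: it had 36.1, 35.7 and 34.1 CPM in PTPRZ-Si libraries, against 38.3, 37.3 and 43.2 CPM in PTPRZ-nc libraries. The DLGAP5 log2 fold change was -0.17 (SE 0.0718, edgeR adjusted p = 0.0899). It passed without PTPRZ-nc 2 (log2 fold change -0.21, edgeR adjusted p = 0.0306). ASPM, a spindle pole protein, had 163, 164 and 162 CPM in PTPRZ-Si libraries, against 164, 158 and 189.7 CPM in PTPRZ-nc libraries. The ASPM log2 fold change was -0.068 (SE 0.0571, edgeR adjusted p = 0.42). PTPRZ-nc 3 stood above the other 5 libraries. NUSAP1, a microtubule bundler, was nearly uncounted, at 0.976, 0.672 and 0.561 CPM in PTPRZ-Si libraries, against 0.526, 0.658 and 0.907 CPM in PTPRZ-nc libraries. The NUSAP1 log2 fold change was 0.029 (SE 0.418, edgeR adjusted p = 0.97). It shares 62.2% of its exon bases with a gene on the same strand, ENSG00000285920. Reads that meet several genes are left out by the default of the counting program, and the part of this in the low value was not tested.

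Of the 4 anaphase genes 3 fell and 1 did not pass (median log2 fold change -0.24). UBE2C, the ubiquitin-conjugating enzyme that works with the anaphase-promoting complex, had 69.4, 75.7 and 66.6 CPM in PTPRZ-Si libraries, against 88.3, 81.0 and 87.4 CPM in PTPRZ-nc libraries. The UBE2C log2 fold change was -0.28 (SE 0.0591, edgeR adjusted p = 0.00186). PTTG1, or securin, the inhibitor of separase, had 62.5, 59.8 and 52.3 CPM in PTPRZ-Si libraries, against 69.5, 67.1 and 72.3 CPM in PTPRZ-nc libraries. The PTTG1 log2 fold change was -0.26 (SE 0.0662, edgeR adjusted p = 0.0063). ESPL1, separase itself, which cuts cohesin, had 55.6, 52.1 and 59.4 CPM in PTPRZ-Si libraries, against 65.0, 65.2 and 64.4 CPM in PTPRZ-nc libraries. The ESPL1 log2 fold change was -0.22 (SE 0.0601, edgeR adjusted p = 0.0117). PTTG1 was lost without PTPRZ-Si 3 (edgeR adjusted p = 0.0545) and ESPL1 without PTPRZ-Si 2 (edgeR adjusted p = 0.0754). The activator of the complex stood out from these 3: CDC20 had 98.2, 91.6 and 97.9 CPM in PTPRZ-Si libraries, against 95.1, 102 and 89.8 CPM in PTPRZ-nc libraries. The CDC20 log2 fold change was 0.0082 (SE 0.0551, edgeR adjusted p = 0.936). The groups overlapped. The CDC20 estimate lay near 0 and was -0.0028 when libraries were scaled by their totals alone.

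Of the 4 cytokinesis genes 3 fell and 1 did not pass (median log2 fold change -0.31). Anillin, a scaffold of the contractile ring, fell most surely: ANLN (ENSG00000011426, chromosome 7 from 36389806 to 36453791, plus strand) had 228, 234 and 227 CPM in PTPRZ-Si libraries, against 301, 287 and 321 CPM in PTPRZ-nc libraries. The ANLN log2 fold change was -0.40 (SE 0.0451, edgeR adjusted p = 3.92e-06). RACGAP1, a part of centralspindlin with KIF23, had 106.9, 103 and 104 CPM in PTPRZ-Si libraries, against 123, 126 and 118 CPM in PTPRZ-nc libraries. The RACGAP1 log2 fold change was -0.23 (SE 0.0475, edgeR adjusted p = 0.00162). ECT2, the exchange factor that activates RhoA at the cell equator, had 182, 179.7 and 181 CPM in PTPRZ-Si libraries, against 189, 199 and 208 CPM in PTPRZ-nc libraries. The ECT2 log2 fold change was -0.14 (SE 0.0451, edgeR adjusted p = 0.0328). Its call was lost without PTPRZ-Si 1, PTPRZ-Si 2, PTPRZ-Si 3 or PTPRZ-nc 3 (edgeR adjusted p = 0.0835, 0.0873, 0.0935 and 0.128). PRC1, the bundler of midzone microtubules, had 0.906, 1.20 and 0.936 CPM in PTPRZ-Si libraries, against 0.526, 1.53 and 2.13 CPM in PTPRZ-nc libraries. The PRC1 log2 fold change was -0.46 (SE 0.411, edgeR adjusted p = 0.453). No direction can be read at such counts. PRC1 shares 57.6% of its exon bases with ENSG00000284946 on the same strand, and the part of this in its low counts was not tested.

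Levels between genes were compared per length, as FPKM, which divides CPM by the exon length in kilobases. TOP2A was the highest of the 48 in both groups, at a mean of 87.1 FPKM in PTPRZ-Si and 102 FPKM in PTPRZ-nc. UBE2C had 54.9 FPKM in PTPRZ-Si and 66.5 FPKM in PTPRZ-nc, CCNB1 57.1 FPKM in PTPRZ-Si and 62.6 FPKM in PTPRZ-nc, TPX2 46.6 FPKM in PTPRZ-Si and 56.6 FPKM in PTPRZ-nc and CDC20 47.1 FPKM in PTPRZ-Si and 46.8 FPKM in PTPRZ-nc. CCNB1 was above UBE2C in PTPRZ-Si and below it in PTPRZ-nc. At the low end, above PRC1 and NUSAP1, stood CDC25C at 2.36 FPKM in PTPRZ-Si and 3.55 FPKM in PTPRZ-nc. Neither length, base composition nor level ordered the fold changes strongly. Across the 48 genes the Spearman correlation of log2 fold change was 0.22 with exon length, 0.010 with GC content and 0.27 with mean CPM. Across all tested genes it was 0.024, 0.028 and -0.033. Genes are not independent replicates, and no p is given for these.

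The other genes of the mitotic machinery, 139 genes in 8 lists that leave out the 48, were read beside them. Of the 136 tested, 71 fell (52.2%), 10 rose (7.35%) and 55 did not pass, with a median log2 fold change of -0.23. Among all tested genes 13.4% fell and 14.0% rose. In the kinetochore and centromere list 24 of 33 tested genes fell and 0 rose by the edgeR test, with a median of -0.37. There HJURP, the chaperone of CENP-A, had 183 ± 4.24 CPM in PTPRZ-Si and 242 ± 9.31 CPM in PTPRZ-nc libraries (means ± SD, n = 3 each, here and for the lists that follow). The HJURP log2 fold change was -0.41 (SE 0.0439, edgeR adjusted p = 2.32e-06). CENPK, of the inner kinetochore, had 17.7 ± 0.606 CPM in PTPRZ-Si and 27.5 ± 0.346 CPM in PTPRZ-nc libraries. The CENPK log2 fold change was -0.64 (SE 0.0776, edgeR adjusted p = 9.54e-06). All 5 condensin genes outside the 48 fell (median -0.27). NCAPG2 of condensin II had 96.1 ± 1.32 CPM in PTPRZ-Si and 133 ± 7.16 CPM in PTPRZ-nc libraries. The NCAPG2 log2 fold change was -0.47 (SE 0.0501, edgeR adjusted p = 2.24e-06). NCAPD2 of condensin I had 186 ± 0.721 CPM in PTPRZ-Si and 232 ± 1.45 CPM in PTPRZ-nc libraries. The NCAPD2 log2 fold change was -0.32 (SE 0.0400, edgeR adjusted p = 1.29e-05). In the list of spindle and centrosome genes 18 of 30 fell and 1 rose (median -0.25). The kinesins KIF20B and KIF22 fell by 0.46 and 0.33 on the log2 scale, and HAUS6, of the augmin complex, rose by 0.24 (edgeR adjusted p = 4.84e-05, 0.000147 and 0.000582).

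Of 14 genes of mitotic entry 9 fell, 1 rose and 4 did not pass (median log2 fold change -0.26). The shares were 64.3% lower and 7.14% higher, beside 13.4% and 14.0% of all tested genes. The inhibitory CDK1 kinase PKMYT1 had 37.6 ± 1.53 CPM in PTPRZ-Si and 51.1 ± 3.83 CPM in PTPRZ-nc libraries. The PKMYT1 log2 fold change was -0.44 (SE 0.0691, edgeR adjusted p = 0.000127). The phosphatase CDC25A, which acts on CDK2 and CDK1, had 10.9 ± 1.58 CPM in PTPRZ-Si and 17.9 ± 1.69 CPM in PTPRZ-nc libraries. The CDC25A log2 fold change was -0.73 (SE 0.116, edgeR adjusted p = 0.000148). ARPP19, an inhibitor of the phosphatase PP2A-B55, rose, with 215 ± 4.63 CPM in PTPRZ-Si and 190.1 ± 2.07 CPM in PTPRZ-nc libraries. The ARPP19 log2 fold change was 0.18 (SE 0.0413, edgeR adjusted p = 0.00407). Both an inhibitor and an activator of CDK1 were thus lower.

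In 3 further lists 18.2% to 25.0% of the tested genes fell, nearer to the 13.4% of all tested genes. The shares that rose were 5.88%, 18.2% and 25.0% in the order below, beside 14.0% of all tested genes. Of 17 genes of the anaphase-promoting complex and its partners 4 fell, 1 rose and 12 did not pass (median log2 fold change -0.035). Of its subunits, CDC23 and ANAPC4 fell by 0.29 and 0.36 on the log2 scale and CDC27 rose by 0.21 (edgeR adjusted p = 0.00257, 0.00358 and 0.00347). Of 11 cohesin genes 2 fell, 2 rose and 7 did not pass (median -0.011). CDCA5, or sororin, which protects cohesin until mitosis, had 42.3 ± 2.49 CPM in PTPRZ-Si and 62.3 ± 2.42 CPM in PTPRZ-nc libraries. The CDCA5 log2 fold change was -0.56 (SE 0.0635, edgeR adjusted p = 4.65e-06). PDS5B fell by 0.31 on the log2 scale, and the cohesin loader NIPBL and PDS5A rose by 0.32 and 0.14 (edgeR adjusted p = 0.00563, 0.000136 and 0.0242). Of 12 further genes of cytokinesis and abscission 3 fell, 3 rose and 6 did not pass (median -0.014). SHCBP1 and SEPTIN7 fell by 0.44 and 0.19 on the log2 scale, and SEPTIN11 and the citron kinase CIT rose by 0.24 and 0.17 (edgeR adjusted p = 0.000163, 0.00696, 0.000183 and 0.0294). Of these, PDS5A was lost without PTPRZ-Si 1, PTPRZ-Si 2 or PTPRZ-nc 1 (edgeR adjusted p = 0.117, 0.0949 and 0.104). CIT was lost without PTPRZ-Si 1, PTPRZ-Si 2, PTPRZ-Si 3 or PTPRZ-nc 1 (edgeR adjusted p = 0.0711, 0.0748, 0.124 and 0.0985), and SEPTIN7 without PTPRZ-Si 1 (edgeR adjusted p = 0.0528). CIT was also lost by DESeq2 (adjusted p = 0.053), with no low-count filter (edgeR adjusted p = 0.0778) and with the gene length offset (edgeR adjusted p = 0.0905). PDS5A was also lost with the gene length offset (edgeR adjusted p = 0.0883).

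The DREAM and MuvB list, which includes related E2F and MYB genes, held the lowest log2 fold change of the 139 genes, that of MYBL1. Binding of these factors to the promoters was not measured here. Of its 14 genes 6 fell, 2 rose and 6 did not pass (median log2 fold change -0.080). The share that fell was 42.9%, beside 13.4% of all tested genes. The share that rose, 14.3%, was near the 14.0% of all tested genes. MYBL1, the A-MYB relative of MYBL2, had 65.9, 65.9 and 68.1 CPM in PTPRZ-Si libraries, against 116, 129.6 and 126 CPM in PTPRZ-nc libraries. The MYBL1 log2 fold change was -0.89 (SE 0.0533, edgeR adjusted p = 2.32e-09). E2F7, an E2F repressor, had 30.6, 33.2 and 31.1 CPM in PTPRZ-Si libraries, against 50.3, 48.7 and 52.0 CPM in PTPRZ-nc libraries. The E2F7 log2 fold change was -0.67 (SE 0.0654, edgeR adjusted p = 7.72e-07). The DREAM repressor E2F4 rose, with 82.4, 82.0 and 78.7 CPM in PTPRZ-Si libraries, against 65.2, 59.6 and 59.3 CPM in PTPRZ-nc libraries. The E2F4 log2 fold change was 0.40 (SE 0.0561, edgeR adjusted p = 4.28e-05). The MuvB subunit RBBP4 also rose, with 95.5, 96.0 and 98.4 CPM in PTPRZ-Si libraries, against 76.2, 75.0 and 75.4 CPM in PTPRZ-nc libraries. The RBBP4 log2 fold change was 0.36 (SE 0.0483, edgeR adjusted p = 3.11e-05). LIN9, LIN54, TFDP1 and RBL1 of this list also fell, by 0.45, 0.30, 0.24 and 0.29 on the log2 scale (edgeR adjusted p = 0.00476, 0.00606, 0.00318 and 0.0304). The list thus moved in both directions. For MYBL1, E2F7, E2F4 and RBBP4 the groups did not overlap, but these were named for their small p, which favours separate groups. Among all tested genes 20.0% had every PTPRZ-Si library below every PTPRZ-nc library, and 20.8% had every one above.

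**Figure D5:**
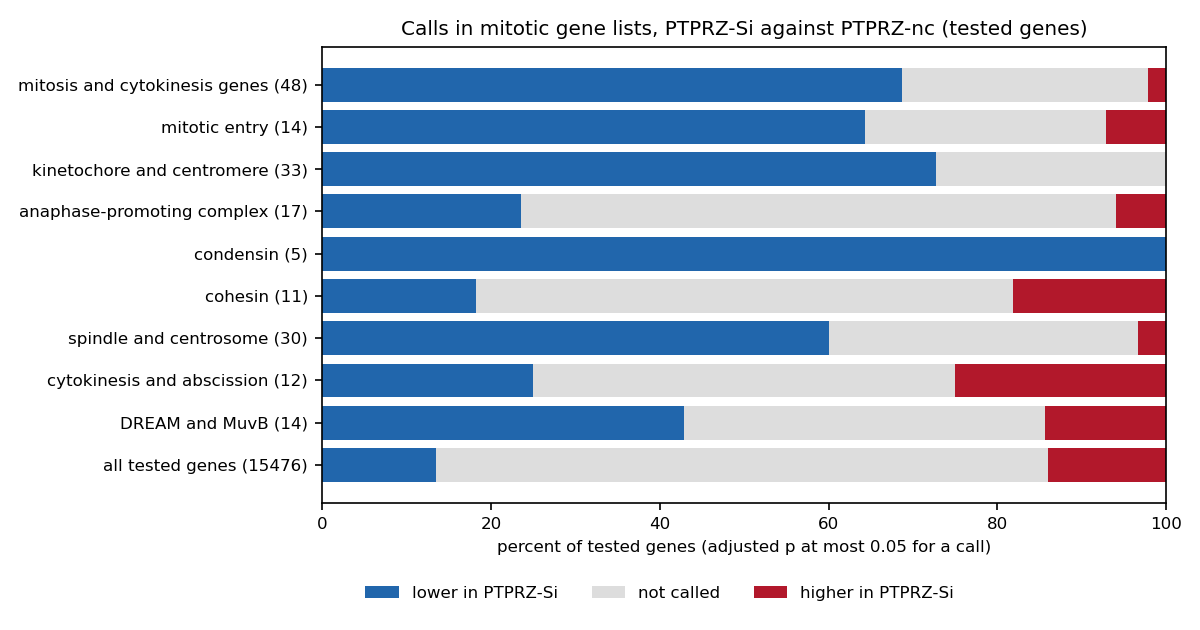
Share of tested genes called lower and called higher (horizontal axis, percent, from 0; threshold 0.05 on the adjusted p) for the 48 mitosis and cytokinesis genes, for each of the 8 other mitotic lists and for all 15476 tested genes, with the number tested beside each name. Lower calls reach 68.8% in the 48 genes and 100% in condensin, against 13.4% of all tested genes, while cohesin and the anaphase-promoting complex stand at 18.2% and 23.5%.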

How the data were processed

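RNA of 6 libraries, 3 PTPRZ-Si and 3 PTPRZ-nc, was sequenced, and groups were taken from the sample titles. The table the authors deposited gives counts, the unscaled read pairs of each gene. Per the file headers, featureCounts 2.0.1 made them over exons grouped by gene of Ensembl release 107, with no strand option, from alignments whose names contain hisat. The build is hg38, per the submitters' processing notes. No option for multiply placed or multiply assigned pairs was set.

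After filterByExpr, 15476 genes held 99.8% of the counts. TMM factors of 0.994 to 1.01 scaled the libraries, and PTPRZ-Si was tested against PTPRZ-nc by glmQLFit and glmQLFTest of edgeR 4.0.16 in R 4.3.3, 2-sided, with Benjamini-Hochberg adjustment over all tested genes and calls at 0.05. The SE is the log2 fold change divided by the root of its F. The coefficient of variation beyond counting was 5.53%. CPM values are TMM-scaled. No gene length stood in the table, so FPKM, coordinates and GC content used exons of GENCODE release 29 (GRCh38). Pairs of libraries of a group differed beyond sampling noise, so each was counted as 1. A count of 0 was read as at most 3 counts.

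The genes, the lists and the rule for named genes were chosen with earlier results of these data known. Every one of the 48 genes may be named, with values in each library for the 3 of smallest p in each role and for each gene that rose or was not called. Of the other lists, the 2 called genes of smallest p in each direction averaging 5 CPM or more were named, and PTPRZ1 and RNF26 always. LIN9, LIN54, TFDP1 and RBL1, the other genes of the DREAM and MuvB list that fell, were named outside this rule. They were not followed singly through the alternatives. Alternatives were 3 other scalings, 2 filters on low counts, DESeq2 1.42.0, limma-voom (limma 3.58.1), offsets for gene length and GC content, a block on the replicate number, an adjusted p of 0.01, a test against a fold of 1.1, leaving out each library and leaving out both libraries numbered 2. The GC offset and the last were added after the data were seen.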

Additional observations from a re-analysis of the deposited data

How the results depend on the processing

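The 33 genes that fell kept a negative log2 fold change in all 693 values under the alternatives, and 24 of them passed whichever library was left out. Over the other alternatives their number ran from 21 to 34, with 29 by DESeq2 and 31 with the replicate block, and 21 in a test against a fold of 1.1. DESeq2 lost CDK1, AURKA, BUB1 and CENPE, the gene length offset CDK1 and AURKA, and the replicate block AURKA and BUB1. Library totals with no scaling factor added CCNB1. The setting with no low-count filter added CCNB1 and CDCA8 and lost AURKA. The genes called higher numbered 3 with a mean of at least 5 CPM (with BUB3 and FOXM1), 2 with the replicate block and gene length offset, and 0 against a fold of 1.1. All genes called lower and higher numbered 1272 and 1383 at an adjusted p of 0.01, and 1153 and 1290 against a fold of 1.1, where the other mitotic lists gave 47 and 5. The promoter share with a CHR word was 57.5% in the 250 bases before the start alone.

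Leaving out 1 library at a time gave 25 to 37 of the 48 genes lower and 1 to 2 higher, a median log2 fold change of -0.25 to -0.22, 1530 to 2161 of all genes lower and 1633 to 2264 higher, and 59 to 72 of the other mitotic genes lower and 7 to 11 higher. Estimates near 0 or with few counts changed sign. CDC20 was -0.0028 with no scaling factor, -0.0028 with the GC offset, -0.0024 with the replicate block and GC offset and -0.037 to 0.050 with a library left out. With a library left out NUSAP1 ran from -0.19 to 0.29, PRC1 from -0.86 to 0.031 and ASPM from -0.12 to 0.015. The cause of these changes was not tested.

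The replicate numbers were not taken to pair the libraries: deviations of same-numbered libraries correlated at 0.023 to 0.033. Every library correlated best with its own number, a hint from the data and not from the design. The replicate block gave 1978 of all genes lower and 2123 higher. Of 546 values for 26 other genes named by the rule, 521 kept the call and 0 changed sign in these fits (edgeR, limma or DESeq2). At these depths genes with few counts, such as NUSAP1 and PRC1, had errors too wide to show changes of the size seen in the rest. A single cell line and libraries of unstated culture origin limit the comparison.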

Other observations

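KIFC1, a kinesin of the spindle and centrosome list, was not tested because too few libraries reached the minimum count of the filter. It had 124, 2 and 2 counts in PTPRZ-Si libraries 1, 2 and 3, against 1, 1 and 5 counts in PTPRZ-nc libraries 1, 2 and 3. SKA1, of the outer kinetochore, had 0 counts in all 6 libraries, which allows 0.140 to 0.219 CPM per library for counting error only, and MAD1L1, a checkpoint protein, had 6 to 15 counts in PTPRZ-Si libraries, against 6 to 9 counts in PTPRZ-nc libraries.

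Copies of the 48 genes, taken by their names and not by measured likeness, held few counts. The largest was UBE2CP5, with 199 counts over the 6 libraries, 2.41% of those of UBE2C. KIF4B had 32 counts over the 6 libraries, 0.474% of those of KIF4A, and MKI67P1, AURKBP1, BUB1P1 and BUB3P1 had 0. Read pairs that match a gene and its copy were not counted for either, by the default of the counting program, and their number was not analysed here.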
